A study of Homo sapiens with 8 samples.

Results

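Proteasome genes were followed in RNA recovered with hnRNP U, a nuclear protein that binds RNA and DNA and is also called SAF-A, in human hTERT-RPE1 cells. They were chosen by name, as the rows of the deposited gene table whose symbol starts with PSMA to PSMG and a digit. That rule took 52 of 13471 genes. Of these, 46 encode proteasome subunits or the factors that assemble, open or inhibit the particle. They were 17 core particle genes (PSMA, PSMB), 20 regulatory particle genes (PSMC, PSMD) and 9 genes of activators, an inhibitor and core chaperones (PSME, PSMF, PSMG). The other 6 rows encode no subunit and are described apart. PSMA8 and PSMB11, subunits known from testis and thymus, were not analysed here.

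The proteasome is the protease that degrades proteins tagged with ubiquitin. Its core particle is a barrel of alpha and beta rings that encloses the cutting sites, and its regulatory particle caps the barrel, binds and removes ubiquitin, and drives a ring of ATPases that unfolds the substrate. In dividing cells it removes cyclin B and securin once these have been tagged by the anaphase-promoting complex, and mitotic exit needs that step.

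hTERT-RPE1 is a line of retinal pigment epithelium cells immortalized with telomerase, and all 8 libraries come from it. The labels do not say whether it was a clone, nor whether the 2 libraries of a group came from separate cultures, so p-values measure only the spread between these libraries. Interphase cells had spent 24 h in thymidine at 2 mM, a block to DNA replication. Mitotic cells had the same block for 24 h, then 6 h without thymidine and a night in S-trityl-L-cysteine (STLC), which inhibits the mitotic kinesin Eg5. Phase and drug schedule therefore cannot be told apart. In each phase, 2 libraries were made without immunoprecipitation (IP) and 2 from an IP with the anti-hnRNP U antibody 3G6. Every group was lysed in the same NP-40 detergent buffer and cleared by centrifugation, and RNA without ribosomal RNA went into directional libraries. Since no IP made with another antibody was analysed here, binding to hnRNP U and carry-over of RNA cannot be told apart.

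Over all genes, the 2 libraries of a group had a Pearson correlation between 0.989 and 0.995 (log2 values). Fragment totals are not given, and depth read from low values, relative to interphase without IP replicate 1, lay between 0.639 and 1.19, with both extremes in the mitotic IP. That estimate rests on 30 to 65 of 760 low genes a library. The FPKM of all genes (fragment counts scaled by transcript length and library size) summed to 1017310 to 1249970 in the libraries without IP and to 321539 to 459661 in the IP libraries. Of 9 pigment epithelium markers, MITF lay between 7.06 and 33.2 FPKM, OTX2 between 3.33 and 22.2, KRT8 between 19.0 and 58.9 and KRT18 between 18.5 and 79.2. PMEL did not exceed 0.144 FPKM, and RPE65, RLBP1, BEST1 and TYR were not among the rows. Of the mesenchymal markers, VIM lay between 579 and 1916 FPKM and THY1 between 37.3 and 158. PDGFRB lay between 0.993 and 9.47 FPKM, COL1A1 between 0.0718 and 1.44, near the floor, and COL1A2 had no row. Of the leukocyte and endothelial markers only CD68 had a row, between 3.00 and 12.2 FPKM. Between phases without IP, 2 of the 5 pigment epithelium markers in the table were lower in mitosis (OTX2 -0.97, KRT18 -0.92) and 1 higher (KRT8 0.41). Of the 4 mesenchymal markers 2 were lower (COL1A1 -0.74, PDGFRB -1.86) and 0 higher. Of all genes, 25.5% were lower and 26.2% higher in that comparison (51.7% in all). The part of such markers in the results was not tested. The mitosis markers CCNB1, CDC20, PLK1 and AURKA rose without IP by 1.18, 1.73, 1.72 and 2.51 on the log2 scale.

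In FPKM, proteasome RNA was lower in the hnRNP U IP than without IP in interphase, and the gap was smaller in mitosis. Together the 46 genes held 2709 and 2522 FPKM in the interphase libraries without IP and 1161 and 1066 FPKM in the interphase IP. In mitosis they held 2252 and 2424 FPKM without IP and 2065 and 2205 FPKM in the IP. The interphase IP had the lowest sums and the mitotic IP lay just below mitosis without IP, with no overlap between the groups in either phase. Sums over all genes were lower in the IP too. They were 1087270 and 1138350 FPKM in interphase without IP, and 349389 and 321539 in the interphase IP. In mitosis they were 1249970 and 1017310 without IP, and 459661 and 379709 in the IP. They fell by a larger factor than those of the 46 genes, so as a share of all FPKM the 46 genes did not fall. In interphase without IP, RPPH1 alone held a mean of 154902 FPKM.

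By limma on log2(FPKM + 1), with Benjamini-Hochberg adjustment over all 13471 genes and a call at an adjusted p below 0.05, 35 of the 46 genes were lower and 3 higher in the interphase IP than without IP. Of all genes, 37% were lower and 37.6% higher in that comparison, 74.6% in all. The median log2 fold change of the 46 genes was -1.24, against 0.02 over all genes. With trends in transcript length and GC content over all genes removed, the median was -0.64, with 30 genes lower and 2 higher. The 30 include PSMC1, whose FPKM were near 0. In the mitotic IP, 14 of the 46 were higher and 19 lower, beside 32.8% and 31.7% of all genes (64.5% in all), a count near the background. The median there was -0.14, against 0.01 over all genes, and was -0.05 with median centring and -0.31 with quantile normalization. By a test of the difference itself, the signed IP effect was higher in mitosis for 32 of the 46 genes and lower for 0. Over all genes these shares were 27.2% and 19.9% (47.1% in all). A positive difference can be a smaller decrease, as for PSMB6 (-2.69 in the interphase IP, -0.62 in the mitotic IP). The median of that difference was 0.84, against 0.07 over all genes. With length and GC trends removed, 25 were higher and 2 lower, with a median of 0.62, and with quantile normalization 28 were higher and 1 lower. Median centring moved the median of all genes to 0.14 in the interphase comparison.

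**Figure D1:**
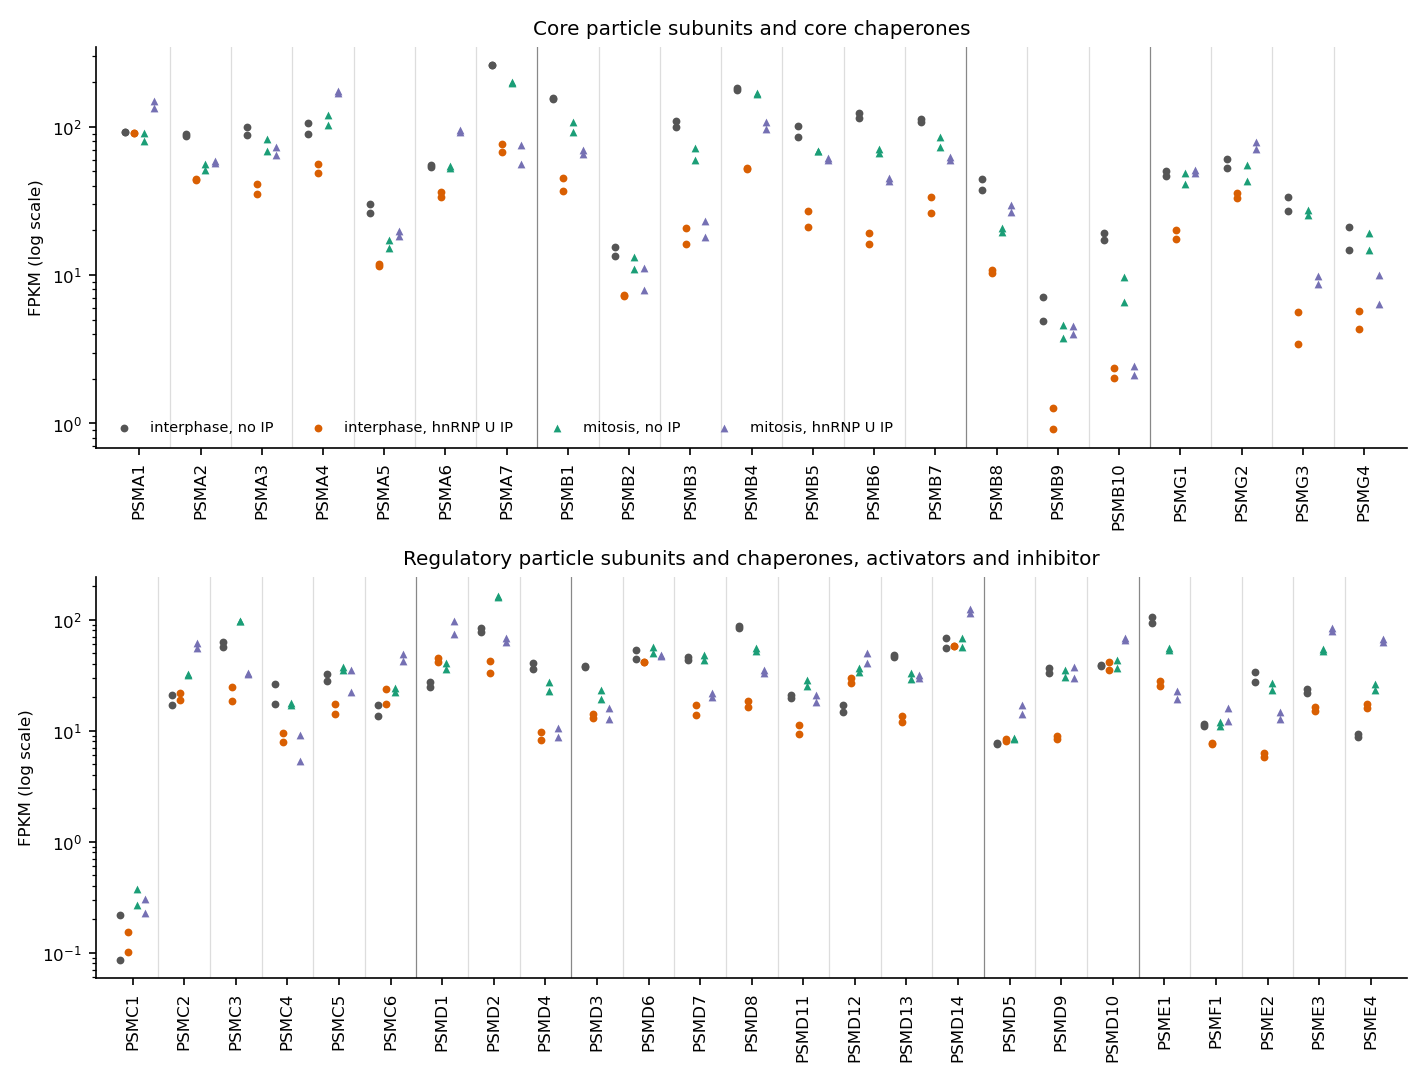
FPKM on a log scale of the 46 proteasome genes, each point 1 library, with circles for interphase and triangles for mitosis. The upper panel holds the core particle genes and core chaperones, the lower one the regulatory particle, activators and inhibitor. PSMC1 lies below 1 FPKM in every library, and PSMA7 is the highest without IP.

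Below, the values of a gene are FPKM in replicates 1 and 2 of interphase without IP, the interphase IP, mitosis without IP and the mitotic IP, in that order. Each log2 fold change is a difference of log2(FPKM + 1), which understates the change of low genes, with 2 libraries in each group. FPKM are per transcript length, so levels may be set side by side between genes. In a bulk library, fewer cells with an RNA and less of it in each cell cannot be told apart. Counts of called genes by class are to be read beside the shares over all genes. These were 37% lower and 37.6% higher in the interphase IP, and 31.7% and 32.8% in the mitotic IP. For the difference of IP effects 19.9% were lower and 27.2% higher, and between phases without IP 25.5% and 26.2%.

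The alpha ring forms the outer rings of the core and its subunit tails gate the way in. PSMA7, the most abundant of them without IP, stood at 259.8 and 259.7, 67.4 and 76.6, 196 and 201, and 74.8 and 56.1 FPKM. PSMA4 stood at 106 and 89.2, 56.4 and 48.7, 102 and 121, and 168 and 174 FPKM. PSMA1 stood at 92.9 and 92.6, 91.0 and 90.4, 79.8 and 91.4, and 133 and 149 FPKM. Only the mitotic IP stood apart for PSMA1, above all 6 other libraries, while PSMA7 was low in both IPs. PSMA6 held 53.4 and 55.0, 36.1 and 33.5, 52.8 and 54.6, and 94.8 and 91.9 FPKM. For PSMA3 the values were 99.9 and 88.5, 41.1 and 35.4, 69.0 and 83.1, and 64.9 and 73.4 FPKM. PSMA2 held 89.1 and 87.0, 44.5 and 43.6, 50.8 and 56.2, and 58.5 and 56.6 FPKM. All 3 were lowest in the interphase IP, with no overlap with the libraries of the other groups. PSMA5, the least abundant alpha subunit, stood at 30.2 and 26.3, 11.9 and 11.5, 15.3 and 17.2, and 18.3 and 19.9 FPKM.

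Of the 7 alpha genes, 6 fell in the interphase IP, with log2 fold changes from -0.63 for PSMA6 to -1.84 for PSMA7. PSMA1 did not pass there (-0.03 ± 0.12 SE, adjusted p = 0.818). PSMA1, PSMA4 and PSMA6 rose in the mitotic IP (0.72, 0.62 and 0.79), and PSMA7 fell (-1.60 ± 0.15 SE, adjusted p = 2.99e-05). The difference of the IP effects (mitosis minus interphase) was called for every alpha gene but PSMA7, and was largest for PSMA4 (1.49 ± 0.20 SE, adjusted p = 0.000453). Removing the length and GC trends turned the interphase value of PSMA6 to 0.05 and ended the mitotic call of PSMA4 at 0.13 (adjusted p = 0.431) and the difference call of PSMA1 (adjusted p = 0.0566), which quantile normalization also ended (adjusted p = 0.059). Without IP, PSMA2 (-0.71) and PSMA5 (-0.76) fell from interphase to mitosis, and the other 5 alpha genes did not pass.

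The beta ring lies inside and carries the cutting sites. PSMB5, PSMB6 and PSMB7 are its catalytic subunits, with chymotrypsin-like, caspase-like and trypsin-like activity. PSMB5 stood at 101 and 85.7, 27.2 and 21.2, 68.6 and 68.2, and 59.5 and 61.2 FPKM. PSMB6 stood at 124 and 115, 19.2 and 16.3, 70.8 and 66.3, and 43.1 and 45.1 FPKM. PSMB7, whose interval in the table also holds LOC100129034, stood at 114 and 108, 33.4 and 26.1, 73.2 and 84.9, and 59.7 and 62.2 FPKM. All 3 were highest in interphase without IP and lowest in the interphase IP, and the 4 groups did not overlap for any of them. PSMB4, a structural subunit, held 183 and 177, 52.0 and 53.1, 169 and 165, and 97.2 and 108 FPKM. PSMB1 held 157 and 155, 45.3 and 36.8, 91.5 and 107, and 65.6 and 70.2 FPKM. PSMB3 held 109.9 and 99.0, 20.8 and 16.3, 60 and 72.3, and 18.1 and 23.2 FPKM. These 3 structural subunits were lower in either IP than without IP in the same phase, in every library. PSMB2 was the least abundant constitutive beta gene, at 15.4 and 13.4, 7.35 and 7.24, 11.0 and 13.2, and 7.96 and 11.2 FPKM.

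All 7 constitutive beta genes fell in the interphase IP. PSMB6 had the lowest value of all 46 genes (-2.69 ± 0.11 SE, adjusted p = 3.02e-07; chromosome 17, 4796144 to 4798503, plus strand, build hg38), and PSMB2 the least negative of the class (-0.89 ± 0.16 SE, adjusted p = 0.000862). Of the 7, 5 were lower in the mitotic IP, PSMB3 most (-1.64 ± 0.16 SE, adjusted p = 3.78e-05), and PSMB5 did not pass (-0.18 ± 0.13 SE, adjusted p = 0.277). The difference of the IP effects was called for 6 of 7, from 0.80 for PSMB3 to 2.06 for PSMB6. Without IP, 5 of the 7 fell from interphase to mitosis, between -0.44 for PSMB5 and -0.79 for PSMB6.

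Several of these calls were narrow. In the mitotic IP, the call of PSMB7 was lost when any of 5 libraries was left out (adjusted p 0.0583 to 0.218), and that of PSMB1 without mitosis no-IP replicate 2 (adjusted p = 0.0528). Without IP, the mitotic decrease of PSMB3 was lost when replicate 1 of either phase was left out (adjusted p 0.0591 and 0.0654). That of PSMB5 was lost without interphase replicate 1 or either mitotic library (adjusted p 0.0823 to 0.156), and that of PSMB7 without either interphase library or mitotic replicate 1 (adjusted p 0.0513 to 0.111). The difference call of PSMB3 was lost without interphase no-IP replicate 1, mitosis no-IP replicate 1, interphase IP replicate 2 or mitosis IP replicate 2 (adjusted p 0.0583 to 0.0667), and it came to -0.13 with length and GC trends removed, when that of PSMB4 no longer passed either (0.25, adjusted p = 0.212). With length and GC trends removed, PSMB6 and PSMB7 in the mitotic IP came to 0.08 and 0.06, PSMB1 and PSMB4 no longer passed there (-0.12 and -0.20), and 4 of the 5 mitotic decreases no longer passed (PSMB1 -0.30, PSMB3 -0.18, PSMB5 -0.13, PSMB7 -0.12).

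PSMB8, PSMB9 and PSMB10 are the inducible subunits that replace PSMB5, PSMB6 and PSMB7 in the immunoproteasome, and interferon gamma raises them. PSMB8 stood at 44.1 and 37.6, 10.3 and 10.8, 20.7 and 19.6, and 29.6 and 26.6 FPKM. PSMB9 stood at 7.11 and 4.88, 1.26 and 0.911, 4.63 and 3.78, and 4.01 and 4.55 FPKM. PSMB10 stood at 19.2 and 17.3, 2.04 and 2.35, 9.69 and 6.6, and 2.43 and 2.11 FPKM. PSMB8 was higher in the mitotic IP than in mitosis without IP, PSMB9 overlapped between those groups, and PSMB10 was low in both IPs. The interval of PSMB8 in the table also holds PSMB8-AS1 and TAP1, so its value is uncertain. Without IP, each inducible gene lay below its constitutive partner: PSMB8 over PSMB5 came to 0.435 and 0.438 in interphase and 0.301 and 0.287 in mitosis. PSMB10 over PSMB7 came to 0.169 and 0.160, and to 0.132 and 0.0777. PSMB9 over PSMB6 came to 0.0573 and 0.0426, and to 0.0654 and 0.0570. The ratios of the first pair did not overlap between phases, nor did those of the second, and those of the third did.

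In the interphase IP all 3 inducible genes fell, PSMB10 most (-2.59 ± 0.17 SE, adjusted p = 1.80e-06). PSMB8 had the largest difference of IP effects of all 46 genes (2.31 ± 0.16 SE, adjusted p = 5.28e-05); it fell in the interphase IP (-1.85) and rose in the mitotic IP (0.46 ± 0.11 SE, adjusted p = 0.00546). PSMB9 differed by 1.76 and PSMB10 by 1.12. With the length and GC trends removed, PSMB9 in the interphase IP came to 0.10 (adjusted p = 0.643) and the difference of PSMB10 to 0.11 (adjusted p = 0.716). Without IP, PSMB8 (-0.98) and PSMB10 (-1.09) had the lowest mitosis values of all 46 genes, and PSMB9 did not pass (-0.41 ± 0.18 SE, adjusted p = 0.0813).

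The regulatory particle is built from a base and a lid. Its 6 ATPases, PSMC1 to PSMC6, form the ring that unfolds the substrate and threads it into the core. PSMC3 stood at 62.5 and 56.2, 24.5 and 18.3, 96.6 and 97.9, and 32.6 and 33.0 FPKM. PSMC5 stood at 32.2 and 28.2, 17.4 and 14, 34.9 and 37.8, and 22.3 and 35.2 FPKM. PSMC4 stood at 26.0 and 17.4, 9.5 and 7.83, 16.9 and 17.7, and 5.37 and 9.13 FPKM. PSMC3 was highest in mitosis without IP, and its IP libraries of both phases lay well below. PSMC6 held 17.1 and 13.5, 23.7 and 17.3, 22.4 and 24.2, and 42.7 and 48.7 FPKM, and was highest in the mitotic IP. PSMC2 held 20.8 and 17.1, 21.9 and 18.9, 32.4 and 32.0, and 55.0 and 61.5 FPKM, but its interval in the table runs 620121 bases past the annotated gene and is shared with RELN, so its value is uncertain. That of PSMC5 is shared with FTSJ3. PSMC1 (chromosome 14, 90256495 to 90275429, plus strand) was listed at only 0.217 and 0.0862, 0.10 and 0.154, 0.378 and 0.267, and 0.226 and 0.304 FPKM, while the other 5 ATPase genes stood at 5.37 FPKM or above in every library.

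PSMC3, PSMC4 and PSMC5 fell in the interphase IP (-1.44, -1.21 and -0.91), and the other 3 did not pass. None of PSMC3, PSMC4 and PSMC5 passed with length and GC trends removed (-0.26, -0.11 and -0.08), and PSMC2 passed as lower (-0.67). PSMC1 passed there too (-0.26), but its FPKM were near 0 and the main fit gave -0.03 (adjusted p = 0.776). No decrease is read from that call. PSMC6 came to 0.39 ± 0.16 SE, adjusted p = 0.0554, and passed under some alternatives, among them median centring (0.52) and leaving out interphase IP replicate 2 (0.61). PSMC2 (0.83) and PSMC6 (0.94) rose in the mitotic IP, and PSMC3 (-1.54) and PSMC4 (-1.19) fell. PSMC2 was the one ATPase gene with a call for the difference of IP effects (0.74 ± 0.17 SE, adjusted p = 0.00827). The difference for PSMC3 was -0.10 ± 0.19 SE, and with length and GC trends removed it passed as lower (-0.90, adjusted p = 0.00348). Without IP, PSMC2, PSMC3 and PSMC6 rose from interphase to mitosis (0.74, 0.70 and 0.58), and the call of PSMC6 was lost without interphase or mitosis no-IP replicate 2 (adjusted p 0.0789 to 0.117).

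PSMD1 and PSMD2 are the large scaffolds of the base, and PSMD4 is a receptor for ubiquitin chains. PSMD2 stood at 84.0 and 76.5, 42.4 and 33.0, 160.0 and 164, and 68.3 and 62.7 FPKM. PSMD1 stood at 27.4 and 24.5, 45 and 41.2, 35.8 and 40.3, and 74.2 and 96.6 FPKM. PSMD4 stood at 40.6 and 35.9, 9.63 and 8.16, 22.5 and 27.5, and 8.76 and 10.4 FPKM. The 2 scaffolds moved in opposite ways in the IP: PSMD1 was higher in each IP library than in either library without IP of its phase, and PSMD2 lower. PSMD1 rose in both IPs (0.71 ± 0.14 SE, adjusted p = 0.00143 in interphase; 1.14 ± 0.14 SE, adjusted p = 0.000124 in mitosis), and PSMD2 fell in both (-1.08 and -1.30). PSMD4 fell in both as well (-1.99 and -1.29). The interphase rise of PSMD1 did not pass with length and GC trends removed (0.24, adjusted p = 0.143). Without IP, PSMD2 (1.01 ± 0.13 SE, adjusted p = 0.000419) and PSMD1 (0.53) rose in mitosis and PSMD4 fell (-0.60). The mitotic calls of PSMD1 (without replicate 2 of either no-IP group, adjusted p 0.0756 and 0.0804) and of PSMD4 (without replicate 1 of either, adjusted p 0.0555 and 0.0557) were narrow. The difference of IP effects was called only for PSMD4 (0.70), and was lost when any of 4 libraries was left out (adjusted p 0.0585 to 0.072: replicate 1 of either no-IP group, replicate 2 of either IP group). It came to -0.07 with length and GC trends removed, when the mitotic decrease of PSMD4 did not pass either (-0.29, adjusted p = 0.101).

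The lid holds the deubiquitinase PSMD14, its partner PSMD7 and 6 subunits that scaffold them. PSMD14 stood at 68.6 and 55.0, 58.3 and 57.5, 57.1 and 68.5, and 114 and 124 FPKM. PSMD7 stood at 46.0 and 42.9, 16.8 and 13.8, 43.5 and 48.3, and 20.0 and 21.7 FPKM. PSMD12 stood at 17.2 and 14.7, 29.9 and 26.8, 33.4 and 37.0, and 40.5 and 50.4 FPKM. PSMD14 was highest in the mitotic IP, whereas PSMD7, which binds it, was lower in both IPs than without IP. PSMD8 held 86.6 and 84.4, 18.6 and 16.3, 52.5 and 55.9, and 33.3 and 35.2 FPKM. PSMD13 held 45.9 and 47.5, 13.5 and 11.9, 29.1 and 32.9, and 29.8 and 31.9 FPKM. PSMD3 held 37.2 and 38.2, 14 and 13.0, 19.1 and 23.3, and 12.7 and 16.1 FPKM. All 3 were highest in interphase without IP. PSMD11 held 20.8 and 19.5, 11.2 and 9.26, 25.2 and 28.8, and 18.1 and 21.1 FPKM. PSMD6, which shares its interval with the antisense gene PSMD6-AS2, held 53.0 and 43.8, 41.8 and 41.7, 50.1 and 56.1, and 47.0 and 47.8 FPKM. Its IP libraries lay below those without IP in both phases, and neither difference passed (-0.20 and -0.16).

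Of the 8 lid genes, 5 fell in the interphase IP, PSMD8 most (-2.23 ± 0.10 SE, adjusted p = 4.09e-07). PSMD12 rose (0.79 ± 0.13 SE, adjusted p = 0.000546), but came to -0.32 (adjusted p = 0.0562) with length and GC trends removed. PSMD14, in the mitotic IP, had the highest value of the lid (0.91 ± 0.14 SE, adjusted p = 0.000399) and PSMD7 the lowest (-1.10 ± 0.12 SE, adjusted p = 5.75e-05). PSMD12 passed narrowly as higher (0.35 ± 0.13 SE, adjusted p = 0.0433), lost the call when any of 5 libraries was left out (adjusted p 0.0505 to 0.271), and came to -0.34 with the trends removed. PSMD3 and PSMD11 lost their calls there (-0.53 and -0.44) without mitosis IP replicate 1 or mitosis no-IP replicate 2 (adjusted p 0.0545 to 0.0911). The difference of IP effects was called for PSMD13 (1.79), PSMD8 (1.59), PSMD14 (0.99) and PSMD3 (0.88). PSMD12 had the lowest difference of all 46 genes (-0.44 ± 0.19 SE, adjusted p = 0.0874). Without IP, PSMD12 rose in mitosis (1.10 ± 0.13 SE, adjusted p = 0.000283; chromosome 17, 67337916 to 67366627, minus strand), PSMD11 rose (0.40), and PSMD3, PSMD8 and PSMD13 fell (-0.81, -0.65 and -0.58). The call of PSMD11 was lost without either interphase library or mitosis no-IP replicate 2 (adjusted p 0.0693 to 0.152), and under quantile normalization, median centring or removal of the trends. With the trends removed, PSMD3 did not pass in either IP (-0.31 and -0.08) or in the difference (0.23), nor did PSMD8 in the mitotic IP (-0.21).

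PSMD5, PSMD9 and PSMD10 are chaperones that hold ATPases while the base is built, and leave before it is complete. PSMD9 stood at 36.3 and 33.2, 8.44 and 8.99, 30.6 and 35.3, and 29.6 and 37.7 FPKM. PSMD10 stood at 39.3 and 37.8, 41.9 and 35.1, 36.6 and 43.1, and 66.0 and 68.8 FPKM. PSMD5 stood at 7.74 and 7.63, 8.46 and 8.01, 8.47 and 8.52, and 14.1 and 16.8 FPKM. PSMD10 and PSMD5 kept to narrow ranges in the first 3 groups and were higher in the mitotic IP, while PSMD9 dipped in the interphase IP alone. All 3 differed between the IP effects, PSMD9 most (1.90 ± 0.19 SE, adjusted p = 0.000125), and none passed between phases without IP. PSMD9 fell in the interphase IP (-1.88), and PSMD5 and PSMD10 rose in the mitotic IP (0.79 and 0.75). PSMD5 passed as lower in the interphase IP (-0.62) with length and GC trends removed.

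The core chaperones work as 2 pairs, PSMG1 with PSMG2 and PSMG3 with PSMG4, and line up the alpha ring. PSMG2, which shares its interval with CEP76, stood at 52.4 and 60.6, 33.1 and 35.8, 43.3 and 55.4, and 70.4 and 79.4 FPKM. PSMG1 stood at 50.3 and 46.3, 20.2 and 17.4, 41.0 and 48.7, and 48.7 and 50.8 FPKM. PSMG3 held 27.1 and 33.5, 3.46 and 5.68, 25.4 and 27.6, and 8.70 and 9.87 FPKM. PSMG4 held 21.2 and 14.8, 5.75 and 4.33, 19.4 and 14.9, and 9.99 and 6.36 FPKM. The second pair was low in both IPs, and the first was low only in interphase. All 4 fell in the interphase IP, from -0.70 for PSMG2 to -2.51 ± 0.19 SE, adjusted p = 3.59e-06 for PSMG3. PSMG2 rose in the mitotic IP (0.60), PSMG3 and PSMG4 fell (-1.42 and -1.0), and PSMG1 did not pass. The difference of IP effects was called for PSMG1 (1.47), PSMG2 (1.30) and PSMG3 (1.09). With length and GC trends removed, PSMG2 and PSMG4 came to 0.08 and 0.02 in the interphase IP, PSMG4 to -0.30 in the mitotic IP, and the difference of PSMG3 to 0.16 (adjusted p = 0.682). None of the 4 passed between phases without IP.

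The activators dock on the core in place of the regulatory particle and open its gate without need of ubiquitin. PSME1 and PSME2 form a ring raised by interferon gamma, PSME3 forms a nuclear ring, PSME4 is a large nuclear activator, and PSMF1 encodes PI31, described as an inhibitor. PSME3 (chromosome 17, 42824385 to 42843758, plus strand) stood at 23.4 and 21.8, 16.2 and 15.0, 54.4 and 52.2, and 83.1 and 78.3 FPKM. PSME4 (chromosome 2, 53864067 to 53970840, minus strand) stood at 8.82 and 9.40, 16.1 and 17.5, 26.1 and 23.3, and 63.2 and 66.6 FPKM. Both were higher in each mitotic library than in any interphase library, with and without IP. PSME1, which shares its interval with EMC9, held 104 and 92.4, 28.2 and 25.1, 55.4 and 53.4, and 22.7 and 19.2 FPKM. PSME2 held 33.8 and 27.6, 6.33 and 5.79, 23.3 and 26.7, and 12.8 and 14.6 FPKM. PSMF1 held 11.5 and 10.9, 7.64 and 7.73, 11.1 and 12.0, and 12.2 and 15.9 FPKM. PSME1 and PSME2 were lower in each IP than without IP in the same phase.

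PSME4 and PSME3 had the highest mitosis values of all 46 genes without IP (1.34 ± 0.10 SE, adjusted p = 2.64e-05; 1.20 ± 0.10 SE, adjusted p = 3.42e-05), and PSME1 fell (-0.84). In the interphase IP, PSME4 had the highest value of all 46 (0.81 ± 0.10 SE, adjusted p = 7.51e-05) and PSME3 fell (-0.51). Both turned when length and GC trends were removed (PSME4 -0.24, adjusted p = 0.0442; PSME3 0.67, adjusted p = 0.000219). PSME4 (1.36) and PSME3 (0.59) rose in the mitotic IP, and PSME1 (-1.34) and PSME2 (-0.82) fell. The difference of IP effects was called for all 5 genes, from 0.50 for PSME1 to 1.34 for PSME2. That of PSME1 was lost when any of 5 libraries was left out (adjusted p 0.0702 to 0.124) and came to -0.31 with the trends removed. That of PSME4 was lost without replicate 2 of either no-IP group (adjusted p 0.0517 and 0.0531) and with quantile normalization (0.32, adjusted p = 0.0981). With the trends removed, the differences of PSME2 and PSME3 came to 0.44 and 0.35 and did not pass (adjusted p = 0.0788 and 0.0518).

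Between phases without IP, the activators PSME3 and PSME4 rose and PSME1 fell (-0.84). The base scaffolds PSMD1 and PSMD2 rose, and PSMD4 of the base fell (-0.60). The catalytic subunits PSMB5, PSMB6 and PSMB7 fell, and so did the structural PSMB1 and PSMB3 (-0.65 each). The calls of PSMD1, PSMD4, PSMB3, PSMB5 and PSMB7 were narrow, as given above. Of the 46 genes, 9 were higher and 14 lower in mitosis, beside 26.2% and 25.5% of all genes (51.7% in all), both near the background. No core particle gene was higher and 9 of 17 were lower, with a median of -0.44. Of the 20 regulatory particle genes 7 were higher and 4 lower, with a median of 0.13. The medians differed by -0.57, and the same-numbered libraries gave -0.57 and -0.61. Removing trends in length and GC brought that gap to -0.29 and moved the median of the 46 genes from -0.11 to 0.03, with 11 higher and 9 lower.

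In the IP, 35 of the 46 genes were higher in mitosis than in interphase and PSME1 alone was lower (-0.34 ± 0.12 SE, adjusted p = 0.0341), beside 35.8% and 25.6% of all genes (61.4% in all). With length and GC trends removed, 31 were higher and 6 lower. The median was 0.83, against 0.08 over all genes. PSME3 (2.30 ± 0.10 SE, adjusted p = 1.13e-06), PSME4 (1.89) and PSMD9 (1.82 ± 0.13 SE, adjusted p = 7.83e-06) had the highest values. PSMA4 led the core (1.68 ± 0.14 SE, adjusted p = 1.51e-05) and PSMC2 the ATPases (1.47 ± 0.12 SE, adjusted p = 1.61e-05). PSMC4 had the lowest value of the regulatory particle (-0.26 ± 0.24 SE, adjusted p = 0.368). PSMB3 and PSMB10, at 0.15 and 0.03, and PSMD3 and PSMD4, at 0.07 and 0.10, did not pass. Core and regulatory medians were 0.84 and 0.80. The call of PSME1 was lost when any of 4 libraries was left out (adjusted p 0.0504 to 0.201), that of PSMC5 without interphase IP replicate 2 (adjusted p = 0.0514), and that of PSMD7 (0.43) without replicate 2 of either IP group (adjusted p 0.0646 and 0.075).

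**Figure D2:**
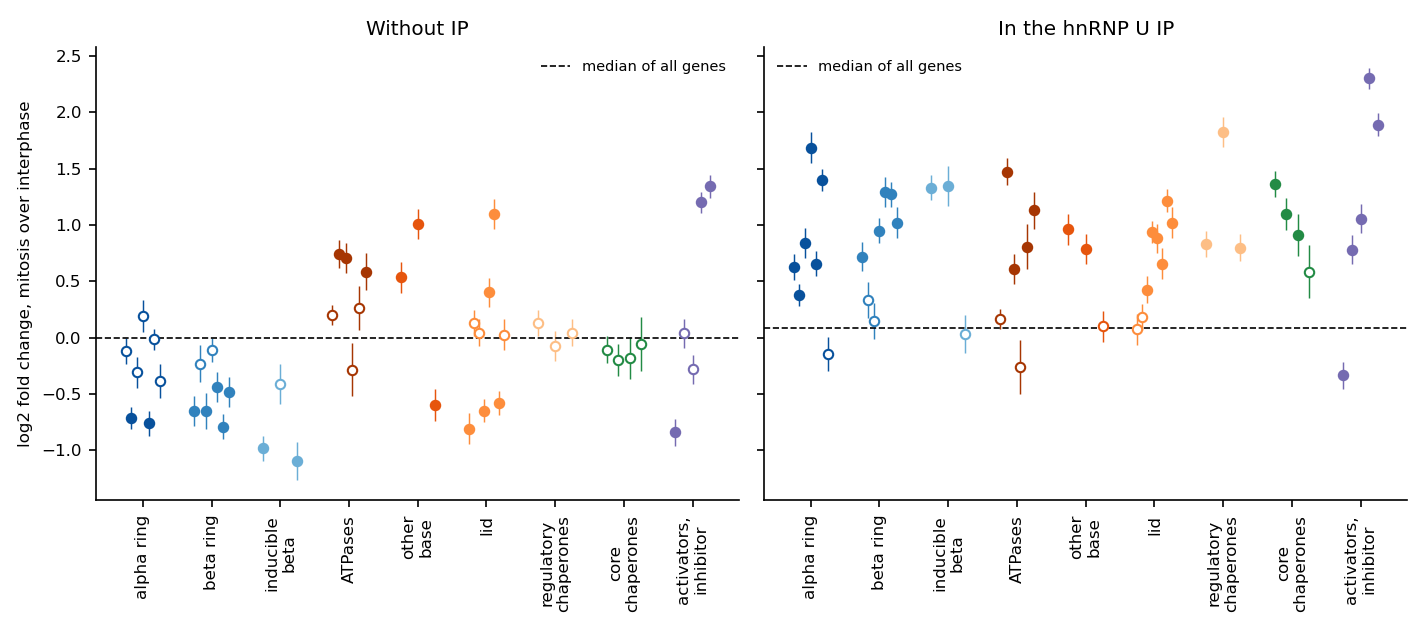
Log2 fold change of mitosis over interphase for each proteasome gene by class, without IP on the left and in the hnRNP U IP on the right, with bars for the SE. Filled points passed at an adjusted p below 0.05, and the dashed line is the median of all 13471 genes. Without IP the core classes lie mostly below the line and PSME3 and PSME4 at the top, and in the IP nearly all genes lie above it.

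Promoter windows are shown for the 2 highest genes (PSME4, PSME3) and the 2 lowest (PSMB10, PSMB8) between phases without IP, since these had the most extreme values of the 46 genes. Each is the 250 bases before the RefSeq start on GRCh38.p14, written in the direction of the gene, with capitals for matches to any of 5 motifs on either strand. The motifs were CCAAT, the CCAAT box; TTTGAA, the cell cycle homology region; TGANNNNGC, the core of the antioxidant response element; CCGGAAG, an ETS site; and a loose form of the interferon-stimulated response element. The windows lie at chr2:53970994-53971243 (minus strand) for PSME4, chr17:42833147-42833396 (plus strand) for PSME3, chr16:67936851-67937100 (minus strand) for PSMB10 and chr6:32844680-32844929 (minus strand) for PSMB8, which has 2 starts in the table and is shown at the one farthest upstream.
PSME4: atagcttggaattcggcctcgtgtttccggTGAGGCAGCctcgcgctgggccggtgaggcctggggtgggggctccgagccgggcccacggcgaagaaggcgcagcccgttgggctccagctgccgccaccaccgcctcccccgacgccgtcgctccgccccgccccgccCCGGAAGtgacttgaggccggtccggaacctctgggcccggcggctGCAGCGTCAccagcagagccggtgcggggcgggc
PSME3: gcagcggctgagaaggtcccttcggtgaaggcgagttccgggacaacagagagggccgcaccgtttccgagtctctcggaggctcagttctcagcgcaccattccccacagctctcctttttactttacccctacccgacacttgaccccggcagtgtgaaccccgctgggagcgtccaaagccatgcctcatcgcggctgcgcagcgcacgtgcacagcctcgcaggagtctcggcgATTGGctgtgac
PSMB10: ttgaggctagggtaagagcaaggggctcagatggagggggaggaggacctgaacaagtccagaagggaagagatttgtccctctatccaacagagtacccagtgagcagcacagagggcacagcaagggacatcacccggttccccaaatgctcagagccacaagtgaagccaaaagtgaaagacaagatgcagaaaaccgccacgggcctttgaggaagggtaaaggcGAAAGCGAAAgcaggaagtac
PSMB8: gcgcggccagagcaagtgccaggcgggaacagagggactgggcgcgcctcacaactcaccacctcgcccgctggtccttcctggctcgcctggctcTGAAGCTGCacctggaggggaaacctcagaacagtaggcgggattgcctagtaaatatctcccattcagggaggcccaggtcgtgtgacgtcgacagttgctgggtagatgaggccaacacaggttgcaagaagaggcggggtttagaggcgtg
The PSME4 window held 1 ETS match and 2 TGANNNNGC matches, that of PSME3 held a CCAAT match 12 bases before the start, that of PSMB10 held the interferon element 21 bases before it, and that of PSMB8 held 1 TGANNNNGC match. A match is a run of letters and not a site shown to be used. The starts differ between annotations: the annotated PSME3 gene begins at 42824385, so its window lies inside the gene. The annotated PSMB10 gene reaches 67937087, so most of its window lies inside the gene too.

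Windows were found for 40 of the 46 genes, and PSMA7, PSMB1, PSMB6, PSMB7, PSMD4 and PSMG3 had none. The 40 genes have 49 windows. TGANNNNGC was in 55.1% of them, beside 35.2% of all 35116 windows of the same length. CCGGAAG was in 20.4%, beside 8.52%, and the interferon-stimulated element in 10.2%, beside 3.02%. CCAAT was in 36.7%, beside 32.0%, and TTTGAA in 12.2%, beside 13.3%. Of the 9 genes higher in mitosis without IP, 4 held CCGGAAG, 3 held TGANNNNGC and 3 held CCAAT. Of the 10 lower genes with a window, 2, 7 and 6 did. These counts describe few genes and were not tested.

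The gap between core and regulatory medians of the IP effect was wider in interphase than in mitosis. In interphase no core particle gene rose and 16 of 17 fell, with a median of -1.76. Of the regulatory particle genes 2 rose and 11 of 20 fell, with a median of -0.92. Of all genes, 37.6% were higher and 37% lower there (74.6% in all). The gap between medians was -0.84, and -0.93 and -0.73 in the same-numbered libraries. It was -0.49 with length and GC trends removed. The medians in the mitotic IP were -0.18 and -0.11, and the gap was 0.15 with the trends removed. For the difference of the IP effects, 15 of 17 core genes and 9 of 20 regulatory genes were called higher. That share was 27.2% over all genes. The medians were 1.37 and 0.55, and the gap of 0.82 was 0.39 with the trends removed. Genes are not replicates of a condition, so the classes were not tested against each other.

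**Figure D3:**
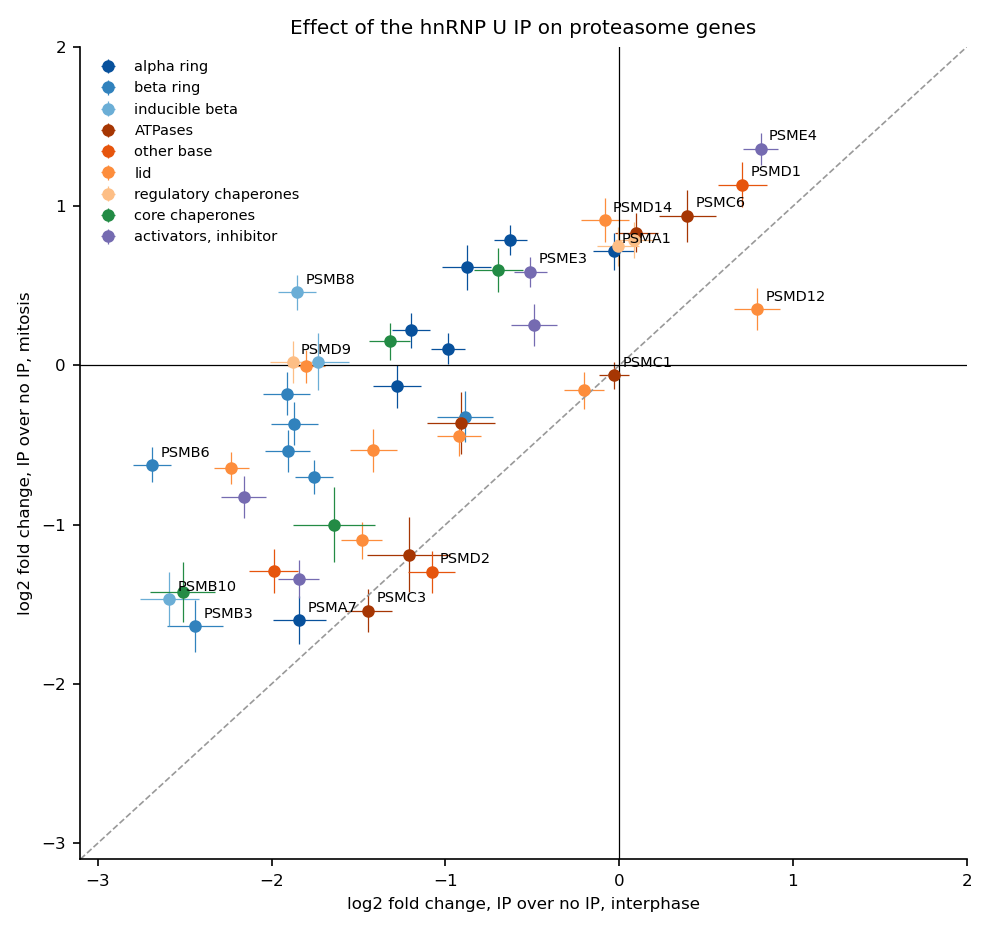
Log2 fold change of IP over no IP in interphase (x) and mitosis (y) for each proteasome gene, coloured by class, with bars for the SE. The dashed line marks equal effects, and 42 of the 46 genes lie above it. PSMB6 lies farthest left and PSME4 farthest to the upper right.

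The IP effect on a proteasome gene varied with the length and GC content of its annotated transcript. The core particle transcripts have a median length of 1029 nt and those of the regulatory particle 2074 nt, with a median GC content of 49.9% and 48.3%. Across the 46 genes, the interphase IP effect had a Spearman's rho of 0.63 with transcript length and -0.74 with GC content, and over 13181 annotated genes 0.55 and -0.72. For the mitotic IP these were 0.46 and -0.72 for the 46 genes, and 0.29 and -0.56 over all annotated genes. These are correlations across genes that share libraries, and are given with no p. The 23 genes of higher GC content (50.7% to 60.1%) all fell in the interphase IP, with a median of -1.84. Among the 23 of lower GC content (36.8% to 49.9%), 12 fell and 3 rose, with a median of -0.49. In mitosis, 15 of the higher-GC genes fell and 3 rose, and 4 of the lower-GC genes fell and 11 rose. Of all genes, 37% fell and 37.6% rose in the interphase IP, and 31.7% and 32.8% in the mitotic IP. PSMA5 (37.2% GC, 3729 nt) fell in interphase by 1.20 on the log2 scale and PSMD12, a transcript of similar GC content (37.9%, 4406 nt), rose. With length and GC trends removed, PSMD12 came to -0.32 and did not pass. This pair was picked from the 46 genes, and why its members differ was not tested. Across the 46 genes the interphase and mitotic IP effects, which share no library, had a Spearman's rho of 0.76, beside 0.71 over all annotated genes.

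**Figure D4:**
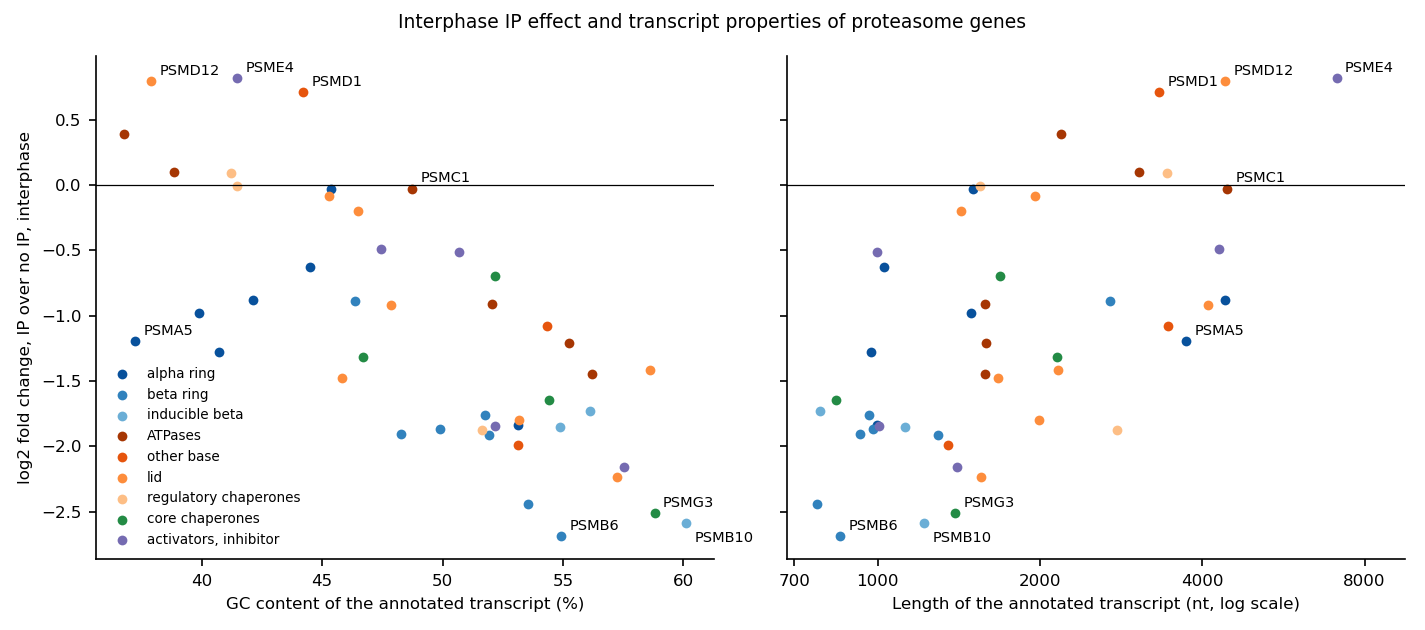
Log2 fold change of IP over no IP in interphase for each proteasome gene against the GC content in percent (left) and the length in nt on a log scale (right) of its annotated transcript, coloured by class. PSMB10, PSMG3 and PSMB6 lie low at high GC content, PSMD12, PSME4 and PSMD1 lie above 0 with long transcripts, and PSMA5 lies at -1.20 near the left edge of the left panel.

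The 6 other rows of the name rule encode no proteasome subunit. PSMA3-AS1, antisense to PSMA3, stood at 9.15 and 8.02, 20.6 and 16.9, 9.41 and 9.03, and 16.9 and 14.6 FPKM and rose in both IPs (1.04 ± 0.13 SE, adjusted p = 7.57e-05; 0.71 in mitosis), whereas PSMA3 fell in interphase (-1.28). The table lists both under 1 interval, and whether counting used strand is not given, so their reads may not be apart. PSMD6-AS2 stood at 0.175 and 0.208, 0.952 and 0.584, 2.97 and 2.62, and 8.73 and 7.40 FPKM, was higher in mitosis without IP (1.67 ± 0.14 SE, adjusted p = 3.94e-05) and rose in both IPs. PSMD5-AS1 was between 0.307 and 2.28 FPKM, rose in both IPs (0.61 and 0.39) and fell in mitosis without IP (-0.56). PSMC3IP, a cofactor of homologous recombination, was between 15.4 and 22.4 FPKM, rose in mitosis without IP (0.42) and passed in neither IP. PSMB8-AS1 was between 1.85 and 2.55 FPKM with no call, and PSMG3-AS1, which did not exceed 0.344 FPKM, was lower in the interphase IP (-0.22) and in mitosis without IP (-0.28).

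Other parts of the ubiquitin and proteasome pathway were read from lists. Of all genes, 37% were lower and 37.6% higher in the interphase IP, and 32.8% higher in the mitotic IP. These short lists were not tested against those shares. Of 8 further subunits and assembly factors, 5 fell and 1 rose in the interphase IP, with a median of -0.68. SHFM1, a small lid subunit, had the lowest value (-3.16 ± 0.20 SE, adjusted p = 1.72e-06, from 185 and 174 to 20.9 and 17.5 FPKM). The ubiquitin receptor ADRM1 (-2.46) and the core maturation factor POMP (-1.68) fell too. KIAA0368, the adaptor also called ECM29, rose (0.94 ± 0.11 SE, adjusted p = 4.43e-05) and had the lowest difference of IP effects of the list (-1.22), and PAAF1 the highest (1.41). The 3 enzymes that ride on the proteasome rose in the interphase IP: USP14 from 14.9 and 13.3 to 40.4 and 38.4 FPKM (1.42 ± 0.12 SE, adjusted p = 6.86e-06), UBE3C by 0.81 and UCHL5 by 0.78. All 3 also rose in the mitotic IP.

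Of the 6 ubiquitin shuttle factors, 4 rose in the interphase IP and 1 fell, beside 37.6% and 37% of all genes. DDI2, a protease that also activates NFE2L1, had the highest value there (1.52 ± 0.13 SE, adjusted p = 8.54e-06). UBA6, a ubiquitin-activating enzyme, rose there too (1.40). Of 7 genes of the p97 segregase, which pulls ubiquitin-tagged proteins from complexes, 5 fell and FAF2 rose (0.46), with UBXN1 lowest (-2.19). Of 6 genes that control proteasome gene transcription, 4 fell and 2 rose, with a median of -0.70 that came to 0.04 with length and GC trends removed. NFE2L1, the main transcription factor of proteasome genes, fell in the interphase IP (-1.14), did not pass in the mitotic IP (-0.07), and rose in mitosis without IP from 32.8 and 37.6 to 56.2 and 53.7 FPKM (0.63 ± 0.11 SE, adjusted p = 0.00171).

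Values of 2 other large complexes are set beside those of the proteasome. In the interphase IP, 5 of 9 genes of the COP9 signalosome, a relative of the lid, fell and 2 rose, and of 8 genes of the CCT chaperonin, 2 fell and 3 rose, beside 37% of all genes lower and 37.6% higher, so that the CCT counts lie near the background. The medians were -0.47 and 0.13, and the second came to -0.03 with length and GC trends removed. The difference of IP effects was called higher for 7 of 9 and 5 of 8, with medians of 1.04 and 0.84, and lower for none, beside 27.2% of all genes, and 32 of 46 and 0.84 for the proteasome. With quantile normalization, 4 CCT genes were higher and 1 lower in that difference. Differences between the complexes were not tested.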

How the data were processed

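RNA from 8 libraries of hTERT-RPE1 cells was analysed in 4 groups of 2. The values are FPKM per gene, made and deposited by the authors; TopHat, StringTie and the builds hg38 and hg19 are named in the submitters' processing notes, with no role given, and the intervals matched hg38. The ratio columns deposited by the authors equal quotients of the FPKM columns (largest relative difference 4.13e-13) and were used only for that check. Fragment totals are not given, so precision rests on the 2 libraries a group.

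limma 3.58.1 (R 4.3.3; lmFit, eBayes with trend) was fitted to log2(FPKM + 1) over all 13471 genes, with 1 coefficient per group and Benjamini-Hochberg adjustment, and was tested on simulated data. Values were tabulated with Python 3.11.15. GENCODE 29 gave transcripts for all 46 proteasome genes and RefSeq gave promoters. Length and GC content come from 1 annotated transcript a gene. For coding genes it was a principal coding transcript where marked, then the one with the longest coding sequence, then the longest. Whether it is the transcript expressed in these cells was not tested, and values with length and GC trends removed rest on that choice. All 52 rows of the name rule are reported. The members and lists were chosen with earlier results of these data known. Alternatives were a pseudocount of 0.1, a filter at a mean of 1 FPKM, quantile normalization, median centring, a replicate block, removal of length and GC trends (loess, span 0.3), and leaving out each library. A second deposited table, of lncRNA, was not used here. Some genes of the pathway lists are not reported here.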

Additional observations from a re-analysis of the deposited data

Results flagged for a closer look

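The effect of the hnRNP U IP differed between mitosis and interphase for 32 of the 46 proteasome genes, and all 32 differences were positive. The test was of the difference itself (limma interaction, Benjamini-Hochberg over all 13471 genes, adjusted p below 0.05). Of all genes, 27.2% were called higher in it and 19.9% lower (47.1% in all). Of the COP9 signalosome 7 of 9 genes were called higher, and of the CCT chaperonin 5 of 8. Values are the log2 IP effect in mitosis minus that in interphase, with 2 libraries in each group. In the core particle they were PSMA1 0.75, PSMA2 1.09, PSMA3 1.15, PSMA4 1.49, PSMA5 1.42 and PSMA6 1.41 in the alpha ring, PSMB1 1.37, PSMB3 0.80, PSMB4 1.06, PSMB5 1.73, PSMB6 2.06 and PSMB7 1.5 in the constitutive beta ring, and PSMB8 2.31, PSMB9 1.76 and PSMB10 1.12 among the inducible subunits. In the regulatory particle they were PSMC2 0.74 among the ATPases, PSMD4 0.70 in the base, PSMD3 0.88, PSMD8 1.59, PSMD13 1.79 and PSMD14 0.99 in the lid, and PSMD5 0.70, PSMD9 1.90 and PSMD10 0.76 among the chaperones. Elsewhere they were PSME1 0.50, PSME2 1.34, PSME3 1.10, PSME4 0.55 and PSMF1 0.74 for the activators and the inhibitor, and PSMG1 1.47, PSMG2 1.30 and PSMG3 1.09 for the core chaperones. PSMB8, PSMB6 and PSMD9 had the largest differences, and PSME1 and PSME4 the smallest of those called. PSMA3, PSMB7, PSMB8, PSMC2, PSME1 and PSMG2 share their interval with another gene, so their values are uncertain. The calls of PSMB3 and PSMD4 were lost without any of 4 libraries, and that of PSME1 without any of 5. With length and GC trends removed, these 3 values turned negative and 7 other calls were lost.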

How the results depend on the processing

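For the 46 proteasome genes, the number called in either direction moved by no more than 1.5 times under any alternative run, but smaller counts in 1 direction did. With length and GC trends removed, the genes lower in mitosis went from 14 to 9 without IP and from 1 to 6 in the IP, and the negative differences of IP effects from 0 to 2. With quantile normalization the last 2 counts went from 1 to 2 and from 0 to 1. Without mitosis IP replicate 2, 1 difference was negative, and without any of 4 libraries (either mitosis no-IP library, interphase IP replicate 1 or mitosis IP replicate 2) 0 genes were lower in mitosis in the IP. Of 2268 values of called genes under the alternatives, 2163 kept direction and call, 92 lost the call and 13 changed sign. Many of these values come from leaving out 1 library, also one that the comparison did not use. All 13 sign changes came with length and GC trends removed. Under that alternative, 26 calls were kept in the interphase IP, 5 lost and 7 turned, and for the difference 22, 7 and 3. The median log2 fold change of the proteasome genes in the interphase IP was -1.30 with a pseudocount of 0.1, -1.28 with the filter at a mean of 1 FPKM, -1.21 with quantile normalization, -1.12 with median centring and -0.64 with length and GC trends removed. In the mitotic IP it was -0.31 with quantile normalization, -0.050 with median centring and -0.057 with the trends removed. For the difference of IP effects it was 0.73 with quantile normalization and 0.62 with the trends removed, and for mitosis against interphase without IP it turned to 0.030 with the trends removed. The core minus regulatory gap in the interphase IP was -0.61 with quantile normalization and -0.49 with the trends removed. In the mitotic IP it turned to 0.0018 with a pseudocount of 0.1 and 0.15 with the trends removed, and was -0.021 with the filter. For the difference of IP effects it was 0.39 with the trends removed. Without IP it was -0.62 with a pseudocount of 0.1, -0.49 with quantile normalization and -0.29 with the trends removed. Between phases in the IP it turned from 0.035 to -0.011 with the trends removed and to -0.0056 without interphase IP replicate 1. The cause of these shifts was not tested.

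Leaving out 1 library at a time, the proteasome genes called numbered 38 to 39 for the IP effect in interphase, 28 to 33 for that in mitosis, 29 to 35 for the difference, 18 to 24 between phases without IP and 34 to 37 in the IP. Their medians were -1.37 to -1.15, -0.21 to -0.043, 0.79 to 1.01, -0.22 to -0.07 and 0.77 to 0.97, and the core minus regulatory gaps -0.92 to -0.70, -0.100 to -0.062, 0.68 to 0.91, -0.63 to -0.53 and -0.0056 to 0.067.

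With length and GC trends removed, values that turned in the interphase IP were PSMA1 0.28, PSMA6 0.051, PSMB9 0.10, PSMC2 -0.67, PSMD12 -0.32, PSMD5 -0.62, PSME3 0.67, PSME4 -0.24, PSMG2 0.081 and PSMG4 0.016. In the mitotic IP they were PSMA5 -0.43, PSMB6 0.082, PSMB7 0.059 and PSMD12 -0.34, and for the difference PSMA7 -0.62, PSMB3 -0.13, PSMD4 -0.073 and PSME1 -0.31. Between phases they were PSMB4 0.29 without IP, and PSMB10 -0.55, PSMD3 -0.37 and PSMD4 -0.36 in the IP.

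The labels number the replicates but do not say that a number marks a shared culture, and deviations of same-numbered libraries correlated between groups with r from 0.0883 to 0.528. With the replicate number as a block, the proteasome genes higher and lower were 4 and 35 for the IP effect in interphase, 14 and 19 for that in mitosis, 33 and 0 for the difference, 9 and 15 without IP and 36 and 1 in the IP. No call was lost under the block, and PSMC6 was gained in the interphase IP (0.39).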
